A study of Sparus aurata with 8 samples.

Results

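The genes described here are the MHC and antigen presentation genes of the gilthead seabream, *Sparus aurata*. They were taken from the annotation by product name: every protein-coding gene whose product names a histocompatibility antigen, an HLA or H-2 class, beta-2-microglobulin, an antigen peptide transporter or tapasin. The rule found 36 genes among 31501 protein-coding genes and 197399 annotated features in all. By product name, 4 encode class II alpha chains, 7 class II beta chains, 2 class II gamma chains, 14 class I chains, 2 beta-2-microglobulin, 4 peptide transporters, 1 a tapasin-related protein and 2 minor histocompatibility antigens. The product names are those of database entries of other species (such as H-2 of mouse, HLA of human, Rano of rat and SLA of pig). The locus letters in a name therefore do not identify a seabream locus, and 11 of the genes carry the same name, class I-related gene.

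RNA was measured by RNA-seq in haploid germ cells (HGC), which are secondary spermatocytes and spermatids sorted from the testis by DNA content and size, and in ejaculated spermatozoa (SPZ_EJ), which were stripped from the males and not sorted. Each group held 4 libraries, and each library was made from a pool of 3 adult males taken in the natural reproductive season. No experimental treatment of the fish is described, but the handling of the samples differed. Testis tissue was digested with collagenase and its cells were stained with a nucleic acid dye before the sort. No such steps are described for the sperm. The sperm was taken from sedated males, and the testes from anaesthetized males that were killed. The comparison asks how the transcriptome differs between haploid germ cells of the testis and the mature spermatozoa. The labels give no strain or age, and do not say whether HGC and SPZ_EJ pools share males. The study gives a single number of males for both cell types, without saying whether it counts each cell type apart. The study described the RNA integrity as high in HGC and low in SPZ_EJ. Because the sort, the digestion and staining before it, the RNA integrity and the stage differ together between the groups, their effects cannot be told apart.

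MHC molecules display peptides on the cell surface to T cells. Class I molecules, made of a heavy chain and beta-2-microglobulin, are found on most nucleated cells and carry peptides that the proteasome cuts in the cytosol and the TAP transporter moves into the endoplasmic reticulum, where tapasin helps to load them. Class II molecules, made of an alpha and a beta chain, are characteristic of B cells, macrophages and dendritic cells, and are escorted by the gamma chain (invariant chain, CD74) to endosomes, where proteases trim the gamma chain and peptides of ingested proteins are bound. In teleosts, class I and class II genes lie on different chromosomes and both families have many copies.

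Counts per library came to 15395220 to 30645027. Protein-coding genes took 83.0% to 86.0% of the counts in HGC and 52.4% to 81.0% in SPZ_EJ. Features annotated as ribosomal RNA took 11.5% to 14.6% in HGC and 11.8%, 31.8%, 15.2% and 10.8% in SPZ_EJ replicates 1 to 4. Levels are given in CPM, the counts per library scaled to a common depth by the TMM method, always in the order of replicates 1 to 4, and differences as the log2 fold change of SPZ_EJ against HGC, positive when SPZ_EJ was higher. A gene was called when edgeR's quasi-likelihood test gave a Benjamini-Hochberg adjusted p below 0.01 over all 21375 features tested and the absolute log2 fold change was above 1. No gene lengths were used, so levels are compared between libraries and not between genes. The p-values measure the spread between pools. Fewer cells of a type and less RNA per cell cannot be told apart in such libraries. Without strand information, reads of overlapping genes cannot be separated either, and reads of near-identical copies may have been divided among them.

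Most of the MHC and antigen presentation genes that passed the filter on low counts were higher in SPZ_EJ. Of the 36 genes, 27 passed this filter and were tested, and of these 21 were called higher in SPZ_EJ, 1 was called lower and 5 were not called. Among the 21375 features tested, 56.9% were called in either direction, with 32.3% higher and 24.7% lower. Among the 15302 protein-coding genes tested, 55.8% were called, with 23.9% higher and 31.9% lower. In 22 of the 27 genes every SPZ_EJ library lay above every HGC library, as it did in 35.4% of all features and 27.6% of the protein-coding genes tested. In 1 gene every SPZ_EJ library lay below every HGC library, which was so in 29.8% of all features and 38.0% of the protein-coding genes tested. The fitted log2 fold change exceeded 5 for 10 genes called higher, against 7.18% of the protein-coding genes tested. The median over the 27 genes was 4.53, beside -0.29 for all protein-coding genes tested and 0.45 for all features. A gene that passed the filter through its SPZ_EJ counts alone had to be higher there, so these counts describe the genes tested and not all 36. The same limit holds for the counts of the gene lists below, and the same shares over all features and all protein-coding genes stand beside them.

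The 34 genes other than the minor histocompatibility antigens together made up between 0.0492% and 0.0537% of all counts per HGC library, and between 0.521% and 1.56% per SPZ_EJ library. Their summed level was 726, 660, 651 and 592 CPM in HGC and 9635, 6049, 5189 and 3924 CPM in SPZ_EJ. The HGC sums thus lay within a factor of 1.23 of each other. The SPZ_EJ sums spanned a factor of 2.46, with replicate 1 highest and replicate 4 lowest. Most of the HGC sum (mean 657 CPM) came from the class II gamma chain gene Saurata1B047082 (mean 541 CPM). Its evenness therefore does not describe every class. Class II beta chains and beta-2-microglobulin spanned factors of 12.9 and 10.8 in HGC, and each spanned 2.42 in SPZ_EJ. Class II alpha chains and the tapasin-related gene also spanned more in HGC than in SPZ_EJ. Class II gamma chains, class I chains and peptide transporters spanned less.

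**Figure D1:**
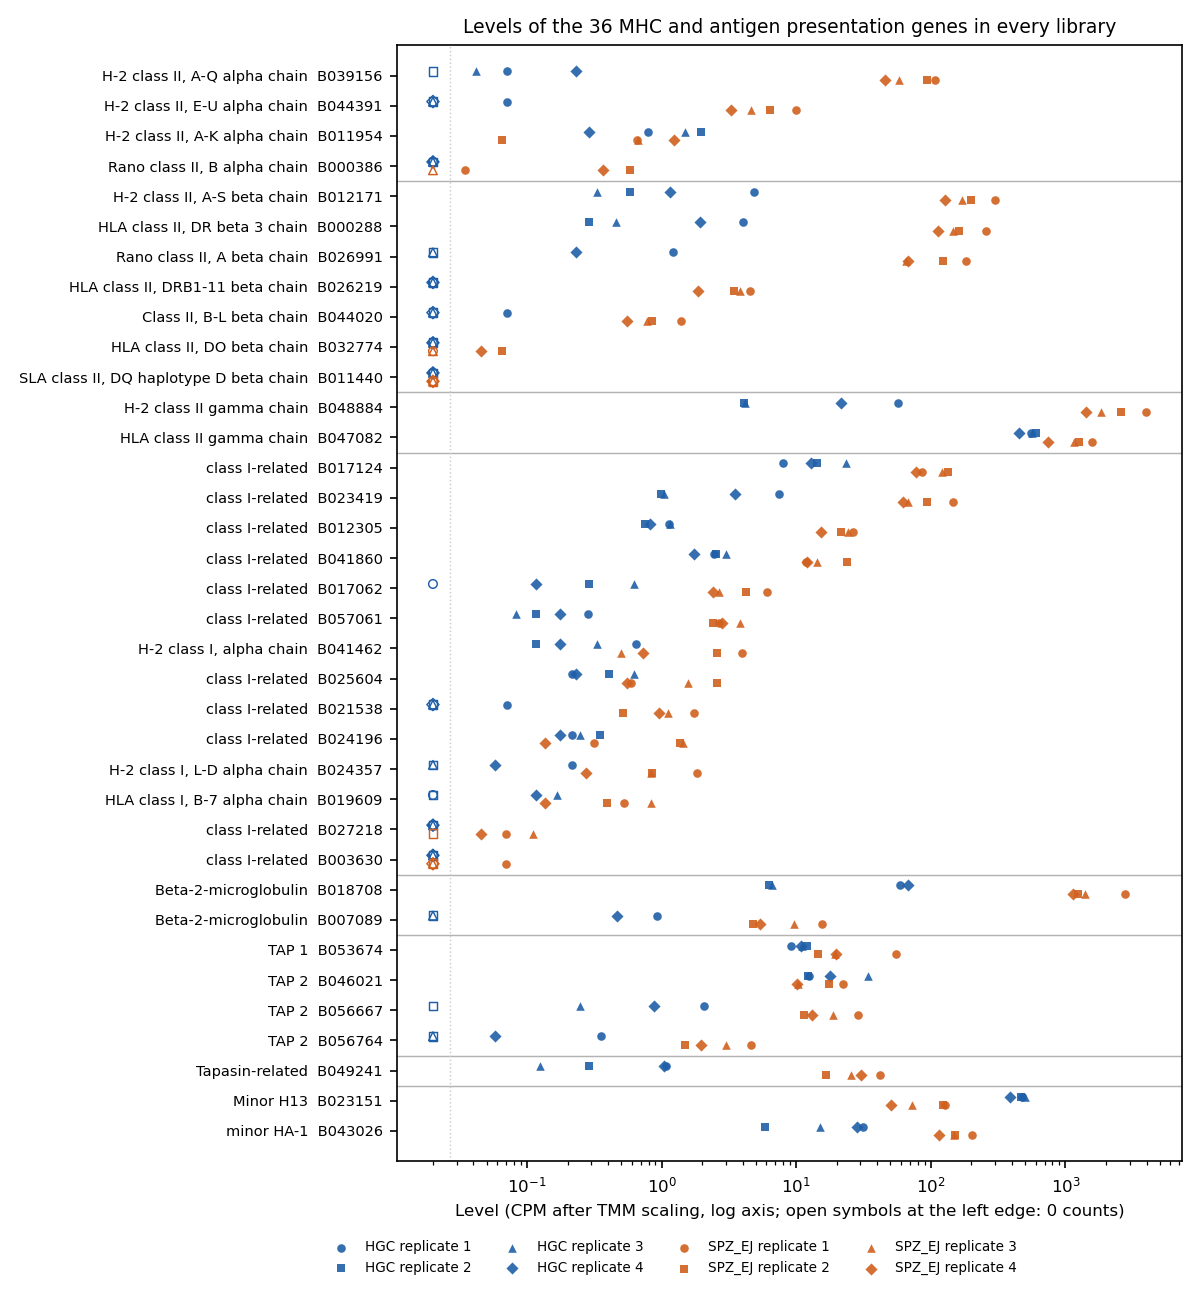
Level of each of the 36 genes in each library (horizontal log axis, CPM after TMM scaling), with HGC in blue and SPZ_EJ in orange, one symbol per replicate, and open symbols at the left edge for 0 counts. Every SPZ_EJ library lies to the right of every HGC library for 22 of the 27 genes tested, while the minor histocompatibility antigen H13 has the opposite order, 51.0 to 128 CPM in SPZ_EJ against 385 to 501 CPM in HGC.

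Class II alpha chains form one wall of the peptide groove of class II molecules. The gene named A-Q alpha chain (Saurata1B039156) had 1, 0, 1 and 4 counts in the HGC libraries and 3081, 1449, 1046 and 1000 counts in the SPZ_EJ libraries. It was called higher (log2 fold change 9.73, SE 0.69, edgeR adjusted p = 1.56e-06), and the size of the fitted value rests on its few HGC counts. The gene named E-U alpha chain (Saurata1B044391) had a single count in HGC, in replicate 1, and a level of 9.88, 6.43, 4.63 and 3.29 CPM in SPZ_EJ. It was called higher (edgeR adjusted p = 2.17e-05), and since 1 count stands behind its HGC level, its ratio of 465.1 has a counting interval of 83.1 to 18404. Another alpha chain did not follow. The gene named A-K alpha chain (Saurata1B011954) was at 0.786, 1.97, 1.495 and 0.291 CPM in HGC and 0.661, 0.0650, 0.670 and 1.23 CPM in SPZ_EJ. Its groups overlapped, and it was not called (log2 fold change -0.77, SE 0.79, edgeR adjusted p = 0.402). The fourth, named Rano B alpha chain (Saurata1B000386), had 0 counts in all HGC libraries and 1, 9, 0 and 8 counts in SPZ_EJ, and did not pass the filter.

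Class II beta chains form the other wall of the groove, and all 5 that were tested were called higher in SPZ_EJ. Among all protein-coding genes tested, 23.9% were called higher. The 5 genes passed the filter on low counts through their SPZ_EJ libraries and not through HGC. Their shared direction therefore follows in part from the filter. The gene named A-S beta chain (Saurata1B012171) was at 4.86, 0.579, 0.332 and 1.16 CPM in HGC and at 300.1, 199.8, 171.6 and 126.6 CPM in SPZ_EJ (log2 fold change of 6.88, SE 0.83, edgeR adjusted p = 3.42e-05). The gene named DR beta 3 chain (Saurata1B000288) was at 4.00, 0.289, 0.457 and 1.92 CPM in HGC and at 259, 161, 147 and 113 CPM in SPZ_EJ (log2 fold change of 6.70, SE 0.80, edgeR adjusted p = 3.06e-05). In both genes HGC replicate 1 was the highest HGC library, and the lowest SPZ_EJ library was far above it. The gene named Rano A beta chain (Saurata1B026991) had 17, 0, 0 and 4 counts in HGC and a level of 183, 123, 65.8 and 67.2 CPM in SPZ_EJ (log2 fold change of 8.36, SE 1.09, edgeR adjusted p = 5.66e-05). Its fold change rests on the size of a very low HGC level, which 2 of the 4 libraries put at 0 counts.

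The gene named DRB1-11 beta chain (Saurata1B026219) was absent from the counts of all 4 HGC libraries and had 130, 53, 68 and 41 counts in SPZ_EJ. Against a floor of 3 counts over the HGC group, or 0.0413 CPM, it was at least 84.15-fold higher in SPZ_EJ (edgeR adjusted p = 9.16e-05). The gene named B-L beta chain (Saurata1B044020) had 1 count in HGC and 40, 13, 14 and 12 counts in SPZ_EJ, so that its ratio was 68.3 with a counting interval of 11.9 to 2731 (edgeR adjusted p = 0.000394). Its call was lost without the filter on low counts and without HGC replicates 1 and 4. Of the remaining beta chains, the one named DO beta chain (Saurata1B032774) had 2 counts over all libraries, and the one named DQ haplotype D beta chain (Saurata1B011440) had 0 counts in every library.

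Summed over the 11 alpha and beta chain genes, the class II level was 11.1, 2.84, 2.33 and 3.84 CPM in HGC and 866, 589, 452 and 360 CPM in SPZ_EJ. HGC replicate 1 was the highest of its group for the sum. The ratio of the means was 113, and 189 without that library.

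The 2 genes of the class II gamma chain, the chaperone CD74, moved by different amounts. The one named after the mouse protein (Saurata1B048884) was at 57.4, 4.11, 4.15 and 21.4 CPM in HGC and at 3988, 2601, 1849 and 1430 CPM in SPZ_EJ (log2 fold change of 6.83, SE 0.96, edgeR adjusted p = 9.59e-05). HGC replicates 1 and 4 were above replicates 2 and 3, and the groups were far apart. The one named after the human protein (Saurata1B047082) was at 552, 603, 562 and 449 CPM in HGC and at 1579, 1264, 1162 and 741 CPM in SPZ_EJ. Its groups did not overlap either, but its rise was near the limit of a call (log2 fold change 1.13, SE 0.31, edgeR adjusted p = 0.00674). This call was lost by DESeq2's test (log2 fold change 1.22, adjusted p = 0.0230), by limma-voom (0.97), without the filter on low counts (0.69), without HGC replicates 1 and 4 (0.80), and when any library other than SPZ_EJ replicate 4 was left out (0.82 to 1.22). The difference between the 2 fold changes was not tested. The RefSeq annotation of assembly fSpaAur1.1 also lists 2 *cd74* genes in this species, on different chromosomes, but the identifiers of the count table were not tied to it.

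Of the 14 class I chain genes, 8 were tested and 6 were called higher in SPZ_EJ. Classical class I heavy chains present cytosolic peptides to CD8 T cells. The class I-related gene, whose product name 11 of the 14 share, is in human a non-classical molecule, and these names do not tell which kind a seabream gene is. Saurata1B017124 was at 7.93, 14.2, 23.5 and 12.8 CPM in HGC and at 85.3, 134.9, 121 and 77.9 CPM in SPZ_EJ (log2 fold change of 2.84, SE 0.38, edgeR adjusted p = 6.63e-05). Saurata1B023419 was at 7.50, 0.984, 1.04 and 3.49 CPM in HGC and at 145, 93.2, 68.2 and 62.0 CPM in SPZ_EJ (log2 fold change of 4.84, SE 0.69, edgeR adjusted p = 0.000101). The HGC libraries ranked differently for the pair, with replicate 3 highest for the first and replicate 1 highest for the second. Saurata1B012305 was at 0.752 to 1.16 CPM in HGC and 15.3 to 26.3 CPM in SPZ_EJ (log2 fold change of 4.48, SE 0.39, edgeR adjusted p = 3.90e-06), and Saurata1B041860 at 1.74 to 3.03 CPM in HGC and 11.9 to 23.8 CPM in SPZ_EJ (log2 fold change of 2.66, SE 0.40, edgeR adjusted p = 0.000150). The latter lost its call without HGC replicates 1 and 4 and without the filter on low counts.

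The last 2 of the 6 were low in both groups. Saurata1B017062 had 22 counts over the HGC libraries and 340 over the SPZ_EJ libraries (log2 fold change 3.80, SE 0.84, edgeR adjusted p = 0.00194), and its call was lost without HGC replicate 2 (3.64), without HGC replicate 4 (3.37) and without HGC replicates 1 and 4 (2.79). Saurata1B057061 had 11 counts in HGC and 243 in SPZ_EJ (log2 fold change 4.14, SE 0.62, edgeR adjusted p = 0.000147), with SPZ_EJ replicate 3 the highest library.

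The class I genes that were not called had overlapping groups. Saurata1B041462, named H-2 class I alpha chain, was at 0.116 to 0.643 CPM in HGC and 0.502 to 3.97 CPM in SPZ_EJ (log2 fold change of 2.62, SE 0.83, edgeR adjusted p = 0.0151), and it was called without SPZ_EJ replicate 3 (3.08) or 4 (3.08). Saurata1B025604 was at 0.214 to 0.623 CPM in HGC and 0.548 to 2.60 CPM in SPZ_EJ (log2 fold change of 1.79, SE 0.70, edgeR adjusted p = 0.0391). The 6 class I genes that were not tested had at most 100 counts over all libraries. Among these, Saurata1B021538 had 1 count in HGC and 99 in SPZ_EJ, so that its ratio was 85.6 with a counting interval of 15.0 to 3414, and Saurata1B024357, named H-2 class I L-D alpha chain, had 4 counts in HGC and 87 in SPZ_EJ. In both, every SPZ_EJ library was above every HGC library. The others had 0 to 18 counts in HGC and 2 to 59 in SPZ_EJ, with overlap or with 0 counts in an SPZ_EJ library.

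Summed over the 14 genes, the class I level was 20.6, 19.7, 30.8 and 19.9 CPM in HGC and 287, 288, 241 and 175 CPM in SPZ_EJ, and the means differed 10.9-fold. Unlike the class II chains, the sum was alike in HGC replicates 1, 2 and 4 and highest in replicate 3. The counts of the 11 genes of the shared name were also added up before the fit, so that reads divided among them no longer matter. Their log2 fold change was then 3.45 (edgeR adjusted p = 4.42e-06). Reads shared with class I genes of other names were not covered by this sum.

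**Figure D2:**
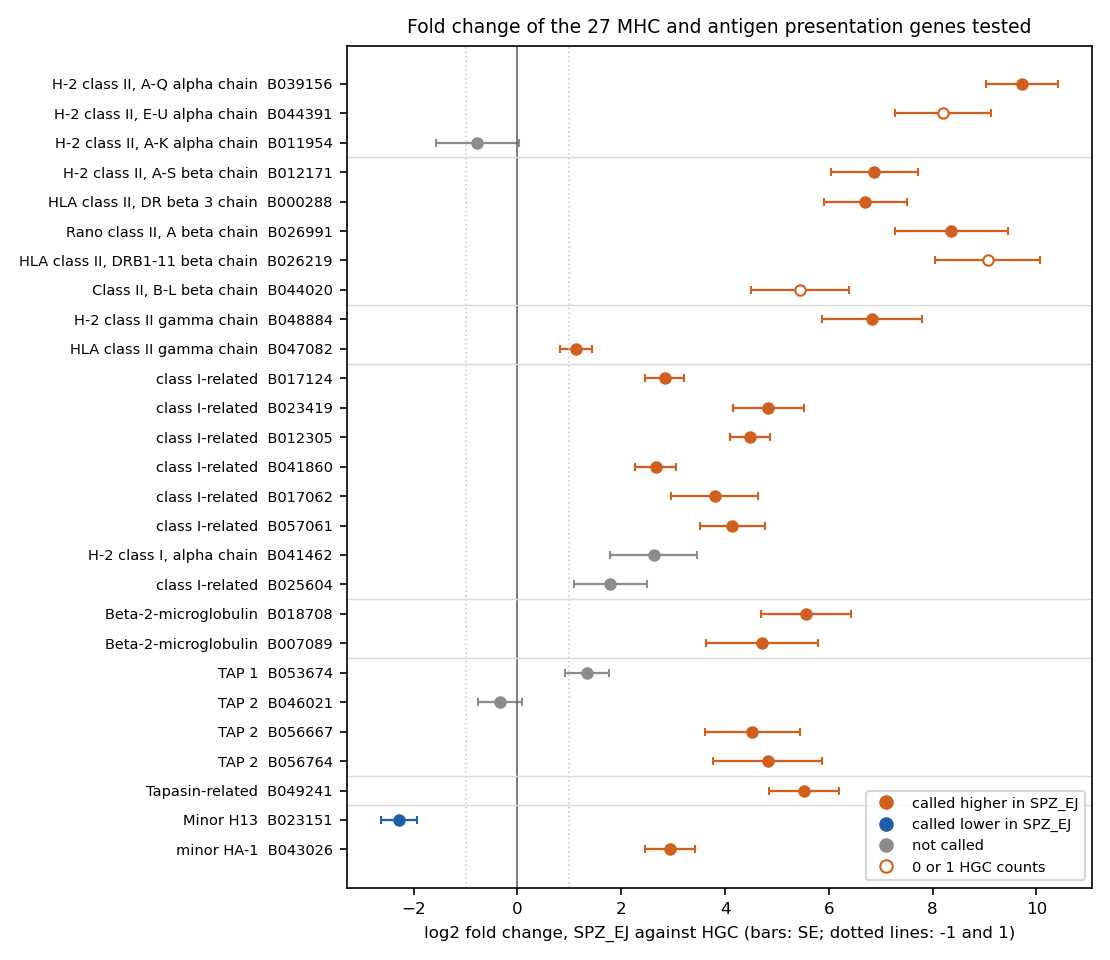
Log2 fold change of SPZ_EJ against HGC (horizontal axis) with its SE for the 27 genes tested, ordered by class, orange when called higher, blue when called lower and grey when not called. Open symbols mark genes with 0 or 1 HGC counts, whose fitted values depend on the prior count. Values run from -2.28 for the minor antigen H13 to 9.73 for the A-Q alpha chain, and the class I chains lie between 1.79 and 4.84.

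Beta-2-microglobulin, the light chain of class I molecules, was higher in SPZ_EJ for both of its genes. Saurata1B018708 was at 58.7, 6.25, 6.56 and 67.3 CPM in HGC and at 2748, 1240, 1400 and 1136 CPM in SPZ_EJ (log2 fold change of 5.56, SE 0.87, edgeR adjusted p = 0.000201). Saurata1B007089 had 13, 0, 0 and 8 counts in HGC and a level of 15.5, 4.74, 9.65 and 5.39 CPM in SPZ_EJ (log2 fold change of 4.72, SE 1.08, edgeR adjusted p = 0.00230). In both genes HGC replicates 1 and 4 stood above replicates 2 and 3. Without HGC replicates 1 and 4 the log2 fold change of Saurata1B018708 was 7.78, while Saurata1B007089 then had 0 HGC counts and no fold is given.

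The peptide transporter TAP is a pair of half-transporters, TAP1 and TAP2, and its genes did not change alike. The gene of TAP1 (Saurata1B053674) was at 9.14, 11.9, 11.0 and 10.8 CPM in HGC and at 55.2, 14.6, 19.4 and 19.7 CPM in SPZ_EJ. No SPZ_EJ library fell into the HGC range, yet the gene was not called (log2 fold change 1.35, SE 0.43, edgeR adjusted p = 0.0151). The value leaned on SPZ_EJ replicate 1, without which it was 0.57, while leaving out SPZ_EJ replicate 2 (1.53) made it a call. Of the 3 genes named TAP2, Saurata1B046021 was at 12.5, 12.2, 33.9 and 17.9 CPM in HGC and at 22.3, 17.6, 10.3 and 10.1 CPM in SPZ_EJ. Its groups overlapped (log2 fold change -0.34, SE 0.42, edgeR adjusted p = 0.486). The other TAP2 genes were both called higher in SPZ_EJ. Saurata1B056667 was at 2.07, 0, 0.249 and 0.872 CPM in HGC and at 28.6, 11.5, 18.8 and 13.2 CPM in SPZ_EJ (log2 fold change of 4.53, SE 0.92, edgeR adjusted p = 0.00109). Saurata1B056764 had 5, 0, 0 and 1 counts in HGC and 132, 23, 54 and 43 counts in SPZ_EJ (log2 fold change 4.82, SE 1.04, edgeR adjusted p = 0.00166). The 3 TAP2 genes may share reads. With their counts added up, the log2 fold change was 0.84 and did not pass (edgeR adjusted p = 0.0747). The summed level of all 4 transporter genes was 24.1 to 45.1 CPM in HGC and 44.9 to 110.7 CPM in SPZ_EJ, and the groups overlapped.

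The tapasin-related gene (Saurata1B049241) encodes a relative of tapasin that in human edits the peptides on class I molecules. It was at 1.07, 0.289, 0.125 and 1.05 CPM in HGC and at 41.7, 16.6, 25.4 and 30.4 CPM in SPZ_EJ. All SPZ_EJ libraries were far above HGC (log2 fold change 5.52, SE 0.67, edgeR adjusted p = 3.40e-05).

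**Figure D3:**
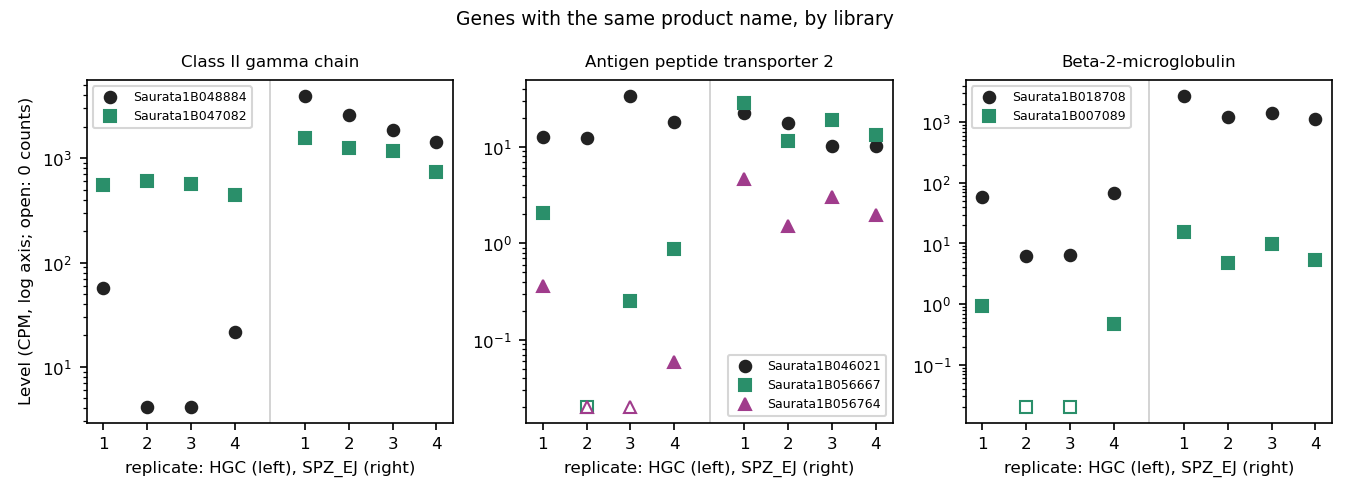
Level of the genes that share a product in each library (vertical log axis, CPM), for the class II gamma chain, peptide transporter 2 and beta-2-microglobulin, with replicates 1 to 4 of HGC on the left and of SPZ_EJ on the right, and open symbols for 0 counts. Saurata1B048884 rises from 4.11 to 57.4 CPM in HGC to 1430 to 3988 CPM in SPZ_EJ while Saurata1B047082 stays within 449 to 1579 CPM, and Saurata1B046021 overlaps between the groups where the other TAP2 genes do not.

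The 2 minor histocompatibility antigens owe their name to peptides of common proteins that differ between individuals, and their proteins do not present antigen. H13 (Saurata1B023151), which in human is the signal peptide peptidase HM13 of the endoplasmic reticulum, was at 473, 463, 501 and 385 CPM in HGC and at 128, 124, 71.9 and 51.0 CPM in SPZ_EJ. It was the 1 gene of the 36 called lower (log2 fold change -2.28, SE 0.34, edgeR adjusted p = 0.000151). HA-1 (Saurata1B043026) was at 31.6, 5.90, 15.0 and 28.1 CPM in HGC and at 200.4, 152, 150 and 114 CPM in SPZ_EJ (log2 fold change of 2.94, SE 0.48, edgeR adjusted p = 0.000269). Neither had overlapping groups.

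Across the genes called higher, the libraries of a group ranked in a recurring way. SPZ_EJ replicate 1 was the highest SPZ_EJ library for 18 of the 21 genes, replicate 2 for 2 and replicate 3 for 1, and among all protein-coding genes called higher replicate 1 was highest in 59.2%. HGC replicates 1 and 4 were both above replicates 2 and 3 for 11 of the 16 genes with at least 10 HGC counts, against 52.1% of the protein-coding genes called higher with as many counts. Haemoglobin, the oxygen carrier of erythrocytes, was at 124, 8.39, 25.0 and 615 CPM in HGC when its 7 genes were added up, so the same libraries, replicates 1 and 4, held the most of it. In SPZ_EJ it was at 22.9, 3.90, 13.2 and 10.6 CPM. Its part in the MHC levels of HGC was not tested. Without HGC replicates 1 and 4, 17 genes were called higher and 1 lower, and the calls that were lost are those of Saurata1B044020, Saurata1B047082, Saurata1B041860 and Saurata1B017062.

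**Figure D4:**
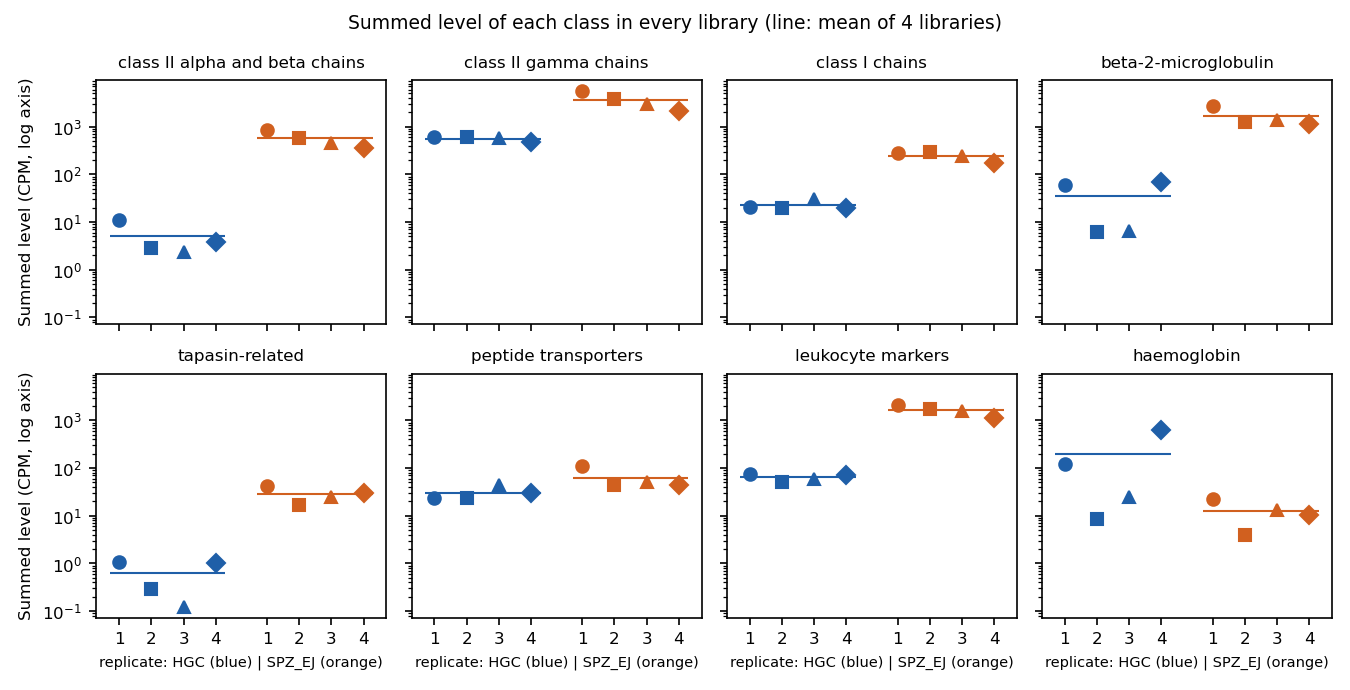
Summed level of each class in each library (vertical log axis, CPM) with the mean of each group as a line, HGC in blue on the left and SPZ_EJ in orange on the right, next to the summed levels of leukocyte markers and of haemoglobin. Beta-2-microglobulin spans 6.25 to 67.8 CPM over the HGC libraries and is highest where haemoglobin is highest, in replicates 1 and 4, while class I chains span 19.7 to 30.8 CPM there.

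The genes that cut and load peptides for class I molecules were followed in lists of product names. The immunoproteasome, the form of the proteasome that immune cells use to cut peptides for class I, had 3 genes tested, and all were called higher in SPZ_EJ. Among all protein-coding genes tested, 23.9% were called higher. Its catalytic subunits passed the filter on low counts through SPZ_EJ and not through HGC. The catalytic subunit beta 8 (Saurata1B029428) was at 3.93, 0.637, 0.249 and 5.17 CPM in HGC and at 172, 90.3, 142 and 101 CPM in SPZ_EJ (log2 fold change of 5.67, SE 0.84, edgeR adjusted p = 0.000132). Subunit beta 9 (Saurata1B024884) had a log2 fold change of 5.99 (SE 0.94) and subunit 2 of the proteasome activator PA28 (Saurata1B009076), which opens the proteasome, one of 4.37 (SE 0.38). Both catalytic subunits were higher in HGC replicates 1 and 4 than in 2 and 3. In fSpaAur1.1, *psmb9a* and *psmb12* are neighbours, and they lie on one chromosome with *brd2a* and *tapbp.1*, while *tap1* lies beside *brd2b*.

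The helpers of class I folding in the endoplasmic reticulum gave a mixed picture. Of 8 genes tested, 4 were called higher, 1 lower and 3 were not called. Among all protein-coding genes tested, 23.9% were called higher and 31.9% lower. The aminopeptidase ERAP1 (Saurata1B027593), which trims peptides to fit the groove, was at 0.291 to 2.43 CPM in HGC and 31.3 to 83.0 CPM in SPZ_EJ (log2 fold change of 5.37, SE 0.66, edgeR adjusted p = 3.77e-05). One calreticulin gene (Saurata1B044273), a chaperone that holds class I for loading, had a log2 fold change of 3.66 (SE 0.37). One calnexin gene (Saurata1B008999), the chaperone of new heavy chains, was the one called lower, with 17.9 to 33.3 CPM in HGC and 3.83 to 5.78 CPM in SPZ_EJ (log2 fold change of -2.44, SE 0.33, edgeR adjusted p = 7.97e-05). Another calnexin gene (Saurata1B052281) leaned the other way with overlapping groups and was not called (log2 fold change 1.53, SE 0.50, edgeR adjusted p = 0.0165). It was called when SPZ_EJ replicate 4 was left out. Disulfide-isomerase A3 (Saurata1B039789), a partner of both chaperones, overlapped between the groups at 83.7 to 117 CPM in HGC and 79.2 to 172 CPM in SPZ_EJ (log2 fold change of 0.36, SE 0.30, edgeR adjusted p = 0.299).

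Proteases of the class II pathway were called higher in SPZ_EJ in all 10 genes tested, beside 23.9% of all protein-coding genes tested. Most of the 10 are cathepsin S genes with the same product name, so this protease enters the count more than once. Most also passed the filter on low counts through SPZ_EJ and not through HGC, so their shared direction follows in part from the filter. Of the 3 not tested, 2 had 0 counts in every library, and a cathepsin S gene (Saurata1B043405) went the other way, with 2, 4, 6 and 16 counts in HGC and 0, 0, 0 and 1 in SPZ_EJ. Cathepsin S (Saurata1B013632), which makes the last cut in the gamma chain, was at 6.0, 0.347, 0.0831 and 2.09 CPM in HGC and at 630, 386, 265 and 283 CPM in SPZ_EJ (log2 fold change of 7.55, SE 1.09, edgeR adjusted p = 0.000111). Its HGC levels were again highest in replicates 1 and 4. Another cathepsin S gene (Saurata1B054425) differed widely between the SPZ_EJ pools, at 11.5, 8.64, 163 and 333 CPM (log2 fold change 6.02, SE 1.17, edgeR adjusted p = 0.000830). Legumain (Saurata1B022855), an endosomal protease of the same route, was at 19.3 to 48.4 CPM in HGC and 255 to 457 CPM in SPZ_EJ (log2 fold change of 3.36, SE 0.39, edgeR adjusted p = 2.64e-05). The gene of cathepsin L (Saurata1B000845) had 4 HGC counts, all in replicate 4, and was called higher too (log2 fold change 5.05, SE 1.20, edgeR adjusted p = 0.00296), a call that was lost without HGC replicate 1, 2 or 3. These enzymes also serve general protein breakdown in lysosomes.

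Regulators of MHC transcription split evenly by direction, with 4 of 8 called higher and 4 called lower. The shares among all protein-coding genes tested were 23.9% higher and 31.9% lower. The class II transactivator CIITA (Saurata1B045903), the coactivator that class II transcription depends on in mammals, was at 0.643, 0.0579, 0.125 and 1.63 CPM in HGC and at 60.8, 33.5, 39.8 and 32.6 CPM in SPZ_EJ (log2 fold change of 6.10, SE 0.82, edgeR adjusted p = 6.82e-05). Interferon regulatory factor 1 (Saurata1B039308), which interferon induces, had a log2 fold change of 5.10 (SE 0.74), and one gene of interferon regulatory factor 8 (Saurata1B025904), a factor of myeloid and B cells, one of 5.82 (SE 0.60). The members called lower were NLRC5, which does for class I in mammals what CIITA does for class II, both RFX5 genes and RFXANK, which bind the promoters of both classes. NLRC5 (Saurata1B048337) was at 11.7 to 20.3 CPM in HGC and 0.940 to 2.79 CPM in SPZ_EJ (log2 fold change of -3.10, SE 0.45, edgeR adjusted p = 0.000113). RFX5 (Saurata1B012541) was at 13.5 to 22.4 CPM in HGC and 0.174 to 2.66 CPM in SPZ_EJ (log2 fold change of -3.85, SE 0.67, edgeR adjusted p = 0.000408), and RFXANK (Saurata1B027581) at 31.7 to 43.8 CPM in HGC and 2.21 to 10.9 CPM in SPZ_EJ (log2 fold change of -2.27, SE 0.44, edgeR adjusted p = 0.000830).

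So the coactivator CIITA and the DNA-binding factors it works with in mammals moved in opposite directions between these groups. Outside the product-name rule, 3 features carry MHC in their names: CIITA itself and a pair of genes named MHC class II regulatory factor RFX1. RFX1 is a relative of RFX5 that in mammals also acts on genes of cilia and of spermatids. Its genes were called lower in SPZ_EJ, Saurata1B041304 with 703 to 1079 CPM in HGC and 35.8 to 68.2 CPM in SPZ_EJ (log2 fold change of -3.94, SE 0.33, edgeR adjusted p = 3.33e-06) and Saurata1B020383 with a log2 fold change of -4.47 (SE 0.40).

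Surface molecules that antigen-presenting cells use beside MHC were called higher in SPZ_EJ in the 5 genes tested of 9. Of all protein-coding genes tested, 23.9% were called higher. CD83 (Saurata1B043978), a marker of activated dendritic and B cells, was at 27.6, 0.984, 0.872 and 9.65 CPM in HGC and at 252, 130, 150 and 109 CPM in SPZ_EJ (log2 fold change of 4.04, SE 0.97, edgeR adjusted p = 0.00316). CD40 (Saurata1B042909), through which T cells activate such cells, had a log2 fold change of 2.94 (SE 0.33), CD80 (Saurata1B019797), which co-stimulates T cells, one of 2.22 (SE 0.45), and the gene of the inhibitory ligand PD-L1 with the highest mean level (Saurata1B032630) one of 1.46 (SE 0.40). The PD-L1 call held in 9 of 18 alternative settings, and was lost on leaving out any HGC replicate or SPZ_EJ replicate 1 or 3. Of 7 receptor genes on the T cell side 3 were tested, and all 3 were called higher, beside 23.9% of the protein-coding genes tested. These 3 genes (CD4, a CD8 beta chain and the CD3 zeta chain) had 2, 4 and 24 counts over the HGC libraries. They passed the filter on low counts through SPZ_EJ, so they had to be higher there. CD4 (Saurata1B022012), the coreceptor for class II, was at 0, 0, 0.0415 and 0.0581 CPM in HGC and at 15.8, 3.25, 9.15 and 5.71 CPM in SPZ_EJ, and a CD8 beta chain (Saurata1B029371), part of the coreceptor for class I, had 4 counts in HGC and a log2 fold change of 3.80 (SE 0.95, edgeR adjusted p = 0.00406), a call lost when any HGC replicate other than 1, or SPZ_EJ replicate 2, was left out. The CD3 zeta chain (Saurata1B038960), a signalling chain of the T cell receptor, had a log2 fold change of 3.87 (SE 0.92). Without HGC replicate 4, 1 of these 3 T cell genes and 3 of the 5 surface genes were called.

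**Figure D5:**
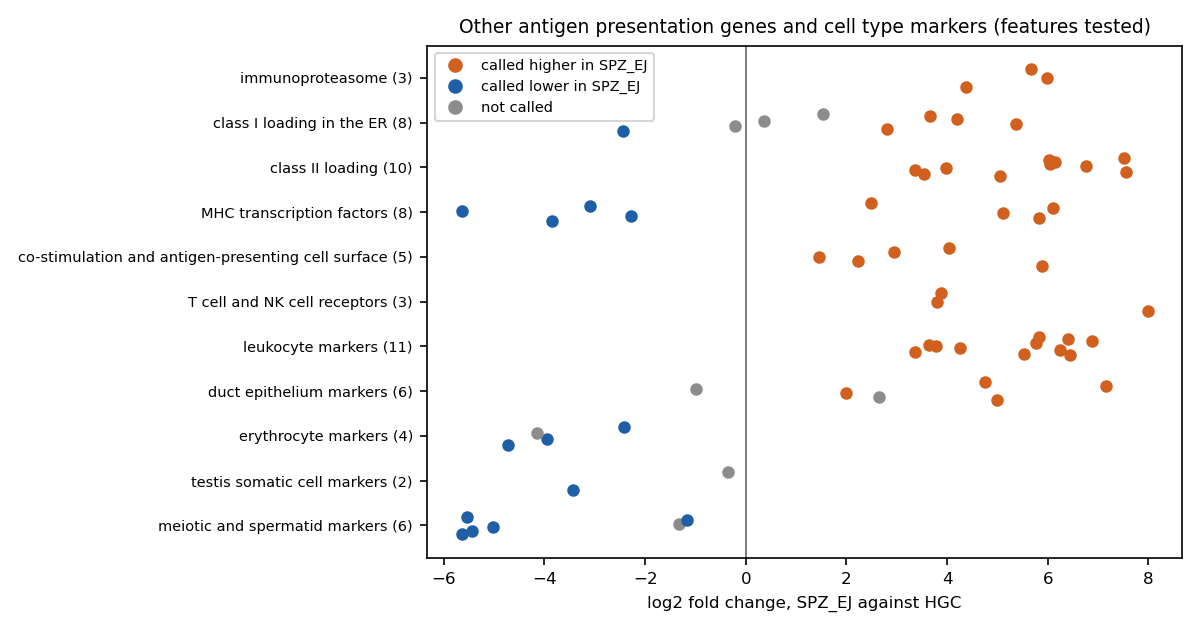
Log2 fold change of SPZ_EJ against HGC (horizontal axis) for each tested gene of the other antigen presentation lists and the cell type marker lists, orange when called higher, blue when called lower and grey when not called, with the number tested in parentheses. Immunoproteasome, class II loading, surface, T cell and leukocyte lists lie wholly above 0, from 1.46 to 7.99, while MHC transcription factors lie on both sides, from -5.64 to 6.10.

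Markers of leukocytes moved in the same direction as the MHC genes. Of 12 such genes 11 were tested, and all 11 were called higher in SPZ_EJ, with a median log2 fold change of 5.76. Among all protein-coding genes tested, 23.9% were called higher. Several of the 11 are CD45 genes with the same product name, so this marker enters the count and the median more than once. Most of the 11 also passed the filter on low counts through SPZ_EJ and not through HGC. Their shared direction therefore follows in part from the filter. The summed level of the leukocyte markers was 76.6, 50.8, 60.2 and 70.3 CPM in HGC and 2071, 1775, 1541 and 1138 CPM in SPZ_EJ. The class II chains shared this order of SPZ_EJ libraries. So did the duct epithelium markers (1356, 1025, 853 and 599 CPM) and the minor antigens (328, 276, 221 and 165 CPM), so the order was not particular to either. Beta-2-microglobulin did not share it (2763, 1244.5, 1409 and 1142 CPM). The CD45 gene with the highest mean level (Saurata1B054174), which marks leukocytes of all kinds, was at 4.07, 0.0579, 0.872 and 1.57 CPM in HGC and at 114.0, 114.3, 85.9 and 54.1 CPM in SPZ_EJ (log2 fold change of 5.83, SE 0.84, edgeR adjusted p = 0.000116). The macrophage receptor CSF1R (Saurata1B022733) had a log2 fold change of 6.25 (SE 0.48) and the B cell receptor component CD79A (Saurata1B019463) one of 5.53 (SE 0.71). The granulocyte receptor CSF3R (Saurata1B020011) rose by 3.36 (SE 0.26), coronin-1A (Saurata1B024622) by 4.26 (SE 0.33) and plastin-2 (Saurata1B041593), an actin bundler of leukocytes, by 6.41 (SE 0.65), all on the log2 scale. Except for 1 CD45 gene with a single HGC count, no leukocyte marker was at 0 in all libraries of a group. The part of leukocytes in the MHC levels was not tested. From the lack of ribosomal RNA peaks and from immunofluorescence microscopy, the study judged its ejaculates nearly free of cells other than sperm. In these libraries, RNA of any leukocytes in the unsorted SPZ_EJ cannot be told apart from RNA of the spermatozoa.

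Set against the summed leukocyte markers of the same library, the MHC classes differed. In HGC this sum (mean 64.5 CPM) was mostly coronin-1A (mean 36.4 CPM) and CSF3R (mean 15.8 CPM). These varied less between HGC libraries than the CD45 gene Saurata1B054174 (0.0579 to 4.07 CPM), so the ratios depend on the make-up of the sum. Class II alpha and beta chains stood at 0.145, 0.0559, 0.0386 and 0.0545 of the leukocyte sum in HGC and at 0.418, 0.332, 0.294 and 0.316 in SPZ_EJ, with no overlap. Class I chains went the other way, from 0.270, 0.389, 0.512 and 0.283 in HGC to 0.138, 0.162, 0.156 and 0.154 in SPZ_EJ. Beta-2-microglobulin, at 0.779, 0.123, 0.109 and 0.964 in HGC and 1.33, 0.701, 0.914 and 1.00 in SPZ_EJ, overlapped. Peptide transporters were at 0.314 to 0.7497 of the leukocyte sum in HGC and 0.0254 to 0.0535 in SPZ_EJ, lower in every SPZ_EJ library. The class II gamma chains parted, with Saurata1B048884 at 0.749, 0.0810, 0.0690 and 0.304 in HGC and 1.93, 1.47, 1.20 and 1.26 in SPZ_EJ, and Saurata1B047082 at 7.21, 11.9, 9.34 and 6.38 in HGC and 0.763, 0.712, 0.754 and 0.651 in SPZ_EJ. For class I chains the SD of this ratio was 0.0102 in SPZ_EJ (mean 0.153) and 0.112 in HGC (mean 0.363), n = 4. For the minor histocompatibility antigens it was 0.00727 in SPZ_EJ (mean 0.151) and 1.60 in HGC (mean 7.57). A steady ratio in SPZ_EJ was thus not particular to class I. For class II alpha and beta chains it was 0.0544 in SPZ_EJ (mean 0.340) and 0.0481 in HGC (mean 0.0734). A ratio of CPM sums depends on gene lengths, so its size has no meaning of its own.

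Markers of other cell types were followed in the same way. Their counts stand beside shares of 23.9% called higher and 31.9% called lower among all protein-coding genes tested. Duct epithelium markers, keratins 8 and 18 and E-cadherin, were called higher in 4 of 6 genes tested, among them keratin 18 (Saurata1B045583) with 0.347 to 8.49 CPM in HGC and 342 to 694 CPM in SPZ_EJ (log2 fold change of 7.17, SE 0.91, edgeR adjusted p = 4.71e-05). E-cadherin (Saurata1B017297) had a log2 fold change of 4.99 (SE 0.68). The call of another keratin 18 gene (Saurata1B036121, log2 fold change 1.99, SE 0.48) held in 10 of 18 settings. A keratin 8 gene (Saurata1B037713) leaned the other way and was not called (log2 fold change -0.99, SE 0.55, edgeR adjusted p = 0.125). Its groups overlapped, at 19.8 to 85.6 CPM in HGC and 7.87 to 49.4 CPM in SPZ_EJ. Erythrocyte markers were called lower in 3 of 4, with log2 fold changes of -4.72 for the haem enzyme ALAS2 (Saurata1B016613), -3.95 for a beta globin (Saurata1B024116) and -2.42 for the anion exchanger band 3 (Saurata1B048137). The groups overlapped for the beta globin, and its call was lost when HGC replicate 1 or 4, or any SPZ_EJ replicate other than 1, was left out (log2 fold change -4.56 to -0.64 over all settings). Testis somatic cell markers were called lower in 1 of 2, the steroid enzyme CYP17A1 (Saurata1B008855, log2 fold change -3.42, SE 0.96, edgeR adjusted p = 0.00765). That call held in 10 of 18 settings, and was lost when any HGC replicate other than 3, or SPZ_EJ replicate 3 or 4, was left out. No product name matched AMH, GSDF or SOX9, so the testis somatic list held only steroid enzymes. Markers of meiosis and spermatids were called lower in SPZ_EJ in 5 of 6, most of them genes of meiosis. Synaptonemal complex protein 1 (Saurata1B010610) was at 2207 to 4483 CPM in HGC and 40.4 to 137 CPM in SPZ_EJ (log2 fold change of -5.64, SE 0.53, edgeR adjusted p = 6.64e-06). For spermatids the list matched only radial spoke head genes, since outer dense fibre and tektin found no product name. Of these, Saurata1B037940 was called lower (log2 fold change -1.17, SE 0.33), a call that held in 6 of 18 settings. Saurata1B034246 was not called (log2 fold change -1.33, SE 0.43, edgeR adjusted p = 0.0161). The part of these cell types in the MHC levels was not tested.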

How the data were processed

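RNA-seq libraries of 4 HGC and 4 SPZ_EJ pools were prepared by oligo-dT priming and template switching, with PCR amplification and without strand or molecular identifiers. The authors aligned the reads with STAR 2.5.3a to their reannotated seabream genome and deposited expected counts per gene estimated with RSEM 1.3.0, as whole numbers and not normalized. The annotation was built in part from these same reads. Libraries were assigned by their labels, and every column of the count table belonged to a labelled library.

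In edgeR 4.0.16, low counts were filtered with filterByExpr and library sizes adjusted by TMM. The quasi-likelihood test contrasted SPZ_EJ against HGC in one fit, and p-values were adjusted after Benjamini and Hochberg over 21375 features. SEs were obtained from the log2 fold change and its F statistic. Against 0 HGC counts, a fold is given as a bound computed with 3 counts over the group. Where it held 1 to 3, the ratio is given with an exact interval of 95%. Intervals and floors cover counting error only, since amplified reads are not independent molecules. Pairs of libraries differed by 11.1 to 60.6 times the counting noise, and each was kept as 1 replicate.

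The genes and the lists (immunoproteasome, class I and class II loading, MHC transcription factors, surface molecules, T cell receptors, leukocyte, erythrocyte, testis somatic, duct epithelium and meiotic markers) were chosen with earlier results of these data known. The spelling of CD45 in the table was added after the product names had been read. Genes named are up to 4 of each class by mean CPM, the 5 largest rises and falls among called genes, genes at 0 counts in a whole group with at least 20 in the other, and the feature with the highest mean CPM of each role. The further class I genes and list members were chosen after their values were seen. Roles with no matching product name, such as PSMB10, RFXAP, ITGB2 and SPI1, were not analysed here.

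Alternatives were DESeq2 1.42.0, limma-voom 3.58.1 with sample weights, DESeq2 size factors, library size or the upper quartile in place of TMM, no filter, at least 10 counts in 4 libraries, an adjusted p below 0.05 with no fold limit, omission of the 20 most abundant features, of each library in turn, the replicate number as a block, and same-named genes summed. Omission of HGC replicates 1 and 4 was chosen after seeing the data. Gene order came from the RefSeq annotation of fSpaAur1.1, a build the files do not name, so no coordinates are given. Other tools were R 4.3.3, Python 3.11.15, numpy 2.4.6, pandas 2.3.3, scipy 1.17.1 and matplotlib 3.10.9.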

Additional observations from a re-analysis of the deposited data

Results flagged for a closer look

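In 128 groups of 4 libraries (the genes of the rule and of the lists with at least 20 counts in the group), the gap between an extreme library and the next, divided by the range of the group, was set against Dixon's 95% critical value. Chance alone passes this in about 1 of 20 groups, and 5 groups passed. For beta-2-microglobulin (Saurata1B018708), SPZ_EJ replicate 1 stood at 2748 CPM with the others at 1136 to 1400 CPM, a gap of 0.837 of the range. For peptide transporter 1 (Saurata1B053674), the same library stood at 55.2 CPM with the others at 14.6 to 19.7 CPM (0.875). For the co-stimulatory ligand CD80 (Saurata1B019797), replicate 1 was set apart in both groups, at 132 CPM against 42.1 to 51.1 CPM in SPZ_EJ (0.900) and at 23.9 CPM against 10.6 to 12.7 CPM in HGC (0.839). For the B cell receptor component CD79A (Saurata1B019463), HGC replicate 1 stood at 1.36 CPM with the others at 0.116 to 0.291 CPM (0.859). In all 5 cases the library set apart was the highest of its group and was replicate 1.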

How the results depend on the processing

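Of the MHC and antigen presentation genes, 17 of the 21 called higher kept that call under every alternative applied to single genes, and H13 stayed lower throughout (log2 fold change -2.75 to -1.57). With 1 library left out, 21 to 24 genes were called, 20 to 23 higher and 1 lower. With same-named genes summed, 14 of 18 names were called, 13 of them higher. Replicate numbers were not treated as pairs. Deviations of same-numbered libraries correlated at 0.117, 0.0155, 0.0125 and 0.0818, and those of differently numbered libraries at -0.148 to 0.155. Such values cannot tell whether the pools share males. With the number as a block 20 genes were called higher and 1 lower, the lost call being Saurata1B047082 (1.09, edgeR adjusted p = 0.0187), while 6032 features were called higher and 4857 lower.

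Without TMM, by library size alone, the median of all features moved by 0.73 on the log2 scale (0.35 by the upper quartile, 0.15 by DESeq2 size factors), and the calls over all features came to 8475 higher with 3706 lower, where TMM gave 6894 with 5271. Library size alone reversed Saurata1B011954 (0.0849) and Saurata1B046021 (0.40), neither of them called, and the latter was also reversed by the upper quartile (0.0278) and by summing the TAP2 genes (0.84). It moved the log2 difference of summed levels to 3.26 for class II gamma chains, 4.08 for class I, 1.62 for transporters and -0.34 for minor antigens, from 2.62, 3.44, 0.97 and -0.98. Without HGC replicates 1 and 4 it was 9.11 for class II beta chains, 7.90 for beta-2-microglobulin and 7.15 for the tapasin-related gene, from 7.71, 6.25 and 5.92, with 4491 features called higher and 4320 lower. DESeq2 called 12934 features higher of 67586 tested. For single genes and settings, 502 results kept their direction and side of the threshold, 21 fell below it, 12 passed it and 4 reversed. The cause of these moves was not tested. The 9 genes not tested did not pass the filter on low counts, with at most 100 counts over all libraries. DESeq2 gave a value for 32 of the 36 genes and the fit without a filter for 35.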
